A study of Homo sapiens with 12 samples.

Results

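A set of 10 genes of the acute phase response and of the complement system was followed in Calu-3 cells, a human line of airway epithelium: SAA1, SAA2, IL6, C3, CFB, CFI, C1S, C1R, CP and SERPINA3. They were given as a list, and several of them had been picked because they differed between control arrays, so those differences are given as a description without a test. All 10 were found among the 18417 genes that the arrays measured with a probe set of 1 symbol. The study asked how microRNAs act on CFTR, a chloride channel of the airway. Of the 12 arrays, some carried RNA from cells given a miR-138 mimic, a synthetic form of that microRNA (n = 3), others from cells given a small interfering RNA against the corepressor gene SIN3A (SIN3A siRNA, n = 3), or the scrambled control RNA NC1 (n = 6). All groups received their RNA with the same lipid reagent, at a dose and for a time that the sources used here do not give. The labels speak of biological replicates but not of separate cultures, and the p-values therefore reflect only the array-to-array spread, which may be technical. Where the 6 NC1 arrays are fitted as 1 group, that spread also holds the gap between NC1 replicates 1 to 3 and 4 to 6. Calu-3 is 1 cell line, and the extraction notes speak of primary cultures instead.

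The acute phase response is the change in secreted proteins that follows infection or injury. Interleukin 6, the product of IL6, and interleukin 1 drive it, chiefly in the liver, through the transcription factors STAT3, C/EBP beta and NF-kB, and airway epithelium makes many of the same proteins. The complement system is a cascade of proteases in which the classical pathway (C1R, C1S) and the alternative pathway (CFB) both cleave C3, and CFI cuts the active fragments of C3 and of C4 to stop it.

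The arrays had medians of 5.09 to 5.16 log2 units over all probe sets, and pairs of arrays correlated at 0.967 to 0.995 over genes. The NC1 arrays did not form 1 group: replicates 1 to 3 and replicates 4 to 6 stood apart. The arrays of 22.4% of genes did not overlap between these parts, and the labels do not name a batch. By earlier analysis of these values, the mimic was placed in an array set with NC1 4 to 6 and the siRNA in a set with NC1 1 to 3, which the labels do not state. All 11 measured epithelial markers lay above the median of genes (EPCAM at a mean of 10.7 log2 units over 12 arrays), against 1 of 10 hepatocyte, 2 of 9 leukocyte, 2 of 10 fibroblast and 1 of 10 endothelial markers. ALB, the defining hepatocyte gene, averaged 2.93 and PTPRC, the defining leukocyte gene, 2.93. The markers of these lists above the median were APOA1 (5.46) for hepatocytes and LYZ (8.69) and CD68 (6.96) for leukocytes. For fibroblasts they were COL1A1 (6.05) and COL1A2 (5.33), and for endothelium CLDN5 (5.79). SIN3A averaged 6.08 ± 0.16 with the mimic and 6.03 ± 0.14 with the siRNA (SD, n = 3 each), and 6.91 ± 0.36 with NC1 (SD, n = 6). It fell in both comparisons with NC1, by 0.83 on the log2 scale with the mimic (SE 0.17, limma adjusted p = 0.0304) and by 0.88 with the siRNA (SE 0.17, limma adjusted p = 0.0111), and its NC1 parts averaged 7.20 (NC1 4 to 6) and 6.62 (NC1 1 to 3). The SIN3A call with the mimic was lost without any treated array or NC1 6 (adjusted p up to 0.202), with arrays centred on their medians (0.0512) and with the arrays of both groups only (0.0880). With the siRNA it was lost without siRNA 2 or 3 (0.0725 and 0.0615).

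The mimic carries the sequence of miR-138, and the labels do not say which arm. The mature miRNAs of both human miR-138 loci are shown, from RefSeq (GRCh38.p14), so that the seed of each can be read. Bases 2 to 8, the seed, are in capitals. The 5p arm is the same at MIR138-1 (chr3:44114234-44114256, plus strand) and MIR138-2 (chr16:56858527-56858549, plus strand), while the 3p arms have different seeds.
hsa-miR-138-5p: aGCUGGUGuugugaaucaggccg
hsa-miR-138-1-3p: gCUACUUCacaacaccagggcc
hsa-miR-138-2-3p: gCUAUUUCacgacaccaggguu

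SAA1 and SAA2 encode serum amyloid A, an acute phase apolipoprotein. The genes lie 17595 bases apart on chromosome 11 (GRCh38.p14, SAA1 at chr11:18266264-18269967 and SAA2 at chr11:18238236-18248668). SAA1 (probe set 7938758) was at 5.64, 5.37 and 5.77 log2 units on the mimic arrays and at 7.76, 7.71 and 7.79 on the siRNA arrays. It was at 5.13, 4.68 and 4.50 on NC1 4 to 6 and at 8.40, 8.39 and 8.52 on NC1 1 to 3. None of these 4 sets of arrays overlapped another: NC1 1 to 3 were highest, then the siRNA, then the mimic, then NC1 4 to 6. The NC1 parts lay 12.7-fold apart (NC1 4 to 6 minus NC1 1 to 3, -3.67 on the log2 scale), the widest gap of the 10 genes. SAA1 lay below the median of genes on NC1 4 to 6 (25.0 to 45.6 percentile), so this fold has a dim level as its base. In bulk RNA, fewer cells that express a gene and less of its RNA per cell cannot be told apart.

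SAA2 (probe set 8180303) followed the same order with smaller steps. Its levels were 6.15, 6.16 and 6.18 with the mimic and 7.44, 7.24 and 7.51 with the siRNA, against 5.96, 5.84 and 5.73 on NC1 4 to 6 and 8.30, 8.24 and 7.94 on NC1 1 to 3. Again no set overlapped its neighbour, and the NC1 parts were 4.98-fold apart (log2 -2.32). A further probe set of SAA2 (7946983) gave -2.10 for the NC1 parts and -1.24 for mimic minus siRNA, close to the -1.23 of the set used. It did not separate the mimic from NC1 4 to 6, however. Its mimic arrays (5.06, 5.09 and 4.99) lay within the range of NC1 4 to 6 (4.92, 4.79 and 5.19). A probe set annotated to both genes (7946986) stayed between 3.21 and 3.75 on all 12 arrays. SAA1 and SAA2 are near-identical copies, and how far probes of one also bind RNA of the other was not tested.

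**Figure D1:**
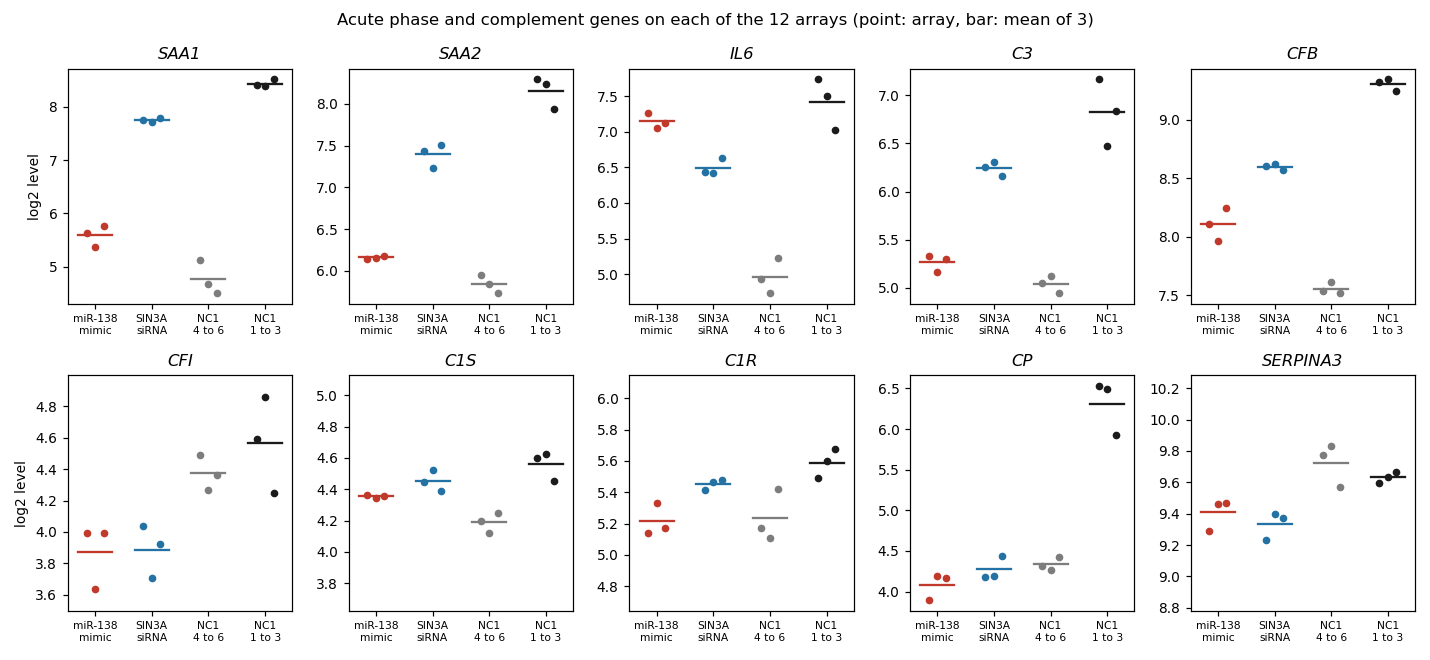
Level of each gene on each array, in log2 units (vertical axes differ between panels), by group. Points are arrays and bars are means of 3. SAA1, SAA2, C3 and CFB share the order NC1 1 to 3, siRNA, mimic, NC1 4 to 6 from high to low, while IL6 is higher with the mimic (7.05 to 7.27) than with the siRNA (6.42 to 6.63). The means of C1S have the same order as SAA1 over a narrower range.

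CP encodes ceruloplasmin, a copper-carrying ferroxidase of plasma. CP (probe set 8091385, chr3:149162414-149221829) was at 3.90, 4.19 and 4.17 with the mimic and at 4.18, 4.19 and 4.44 with the siRNA, against 4.31, 4.27 and 4.42 on NC1 4 to 6 and 6.53, 6.49 and 5.92 on NC1 1 to 3. NC1 1 to 3 stood apart from all 9 other arrays, 3.95-fold above NC1 4 to 6 (log2 -1.98 for NC1 4 to 6 minus NC1 1 to 3). The mimic arrays lay just below NC1 4 to 6, and the siRNA arrays overlapped both. The 9 low arrays lay below the median of genes, which was 5.25 to 5.33 on the arrays. The values hold no measure of background.

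SERPINA3, alpha-1-antichymotrypsin, is an acute phase inhibitor of serine proteases. SERPINA3 (probe set 7976496, chr14:94612391-94624053) was at 9.29, 9.46 and 9.47 with the mimic and at 9.23, 9.40 and 9.37 with the siRNA. NC1 4 to 6 gave 9.78, 9.83 and 9.57, and NC1 1 to 3 gave 9.59, 9.63 and 9.67. It was one of 2 members, with CFI, whose NC1 parts overlapped, and both treated groups lay below all 6 NC1 arrays.

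IL6 encodes the cytokine interleukin 6. IL6 (probe set 8131803, chr7:22727200-22731998) was at 7.27, 7.05 and 7.12 with the mimic and at 6.43, 6.42 and 6.63 with the siRNA. It was at 4.93, 4.73 and 5.23 on NC1 4 to 6 and at 7.74, 7.51 and 7.03 on NC1 1 to 3. The mimic arrays lay within the range of NC1 1 to 3, and the siRNA arrays lay between them and NC1 4 to 6. The NC1 parts were 5.51-fold apart (log2 -2.46), with NC1 4 to 6 below the median of genes (33.1 to 46.3 percentile). With NC1 4 to 6 set to 0 and NC1 1 to 3 set to 1, the mimic stood at 0.89 for IL6, at 0.32 for CFB, at 0.22 for SAA1, and at 0.14 for SAA2 and 0.13 for C3. The siRNA stood between 0.60 and 0.81 for these 5 genes.

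C3, the central complement protein, and CFB, the protease of the alternative pathway, shared the order of SAA1. C3 (probe set 8033257, chr19:6677704-6720650) was at 5.34, 5.16 and 5.30 with the mimic and at 6.25, 6.31 and 6.16 with the siRNA, against 5.05, 5.12 and 4.95 on NC1 4 to 6 and 7.16, 6.47 and 6.83 on NC1 1 to 3. CFB (probe set 8178115, chr6:31946095-31952084) was at 8.11, 7.97 and 8.25 with the mimic and at 8.61, 8.62 and 8.57 with the siRNA, against 7.54, 7.61 and 7.52 on NC1 4 to 6 and 9.32, 9.35 and 9.25 on NC1 1 to 3. No set of arrays overlapped another for either gene, and the NC1 parts were 3.44-fold apart for C3 and 3.37-fold for CFB. C3 also lay below the median of genes on NC1 4 to 6 (37.0 to 45.0 percentile). The other probe sets of CFB, 8118345 and 8179351, gave -1.75 and -1.52 for the NC1 parts, beside -1.75 for the set used.

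C1R and C1S, the proteases of the first complement component, are neighbours on chromosome 12 (C1R at chr12:7080219-7092445, C1S at chr12:7060718-7071032) and moved little. C1R (probe set 7960744) was at 5.14, 5.33 and 5.17 with the mimic and at 5.41, 5.46 and 5.48 with the siRNA, against 5.17, 5.11 and 5.42 on NC1 4 to 6 and 5.49, 5.60 and 5.68 on NC1 1 to 3. C1S (probe set 7953603) was at 4.37, 4.34 and 4.36 with the mimic and at 4.45, 4.52 and 4.39 with the siRNA, against 4.20, 4.12 and 4.25 on NC1 4 to 6 and 4.60, 4.63 and 4.45 on NC1 1 to 3. Their NC1 parts did not overlap but were only 1.28-fold (C1R) and 1.29-fold (C1S) apart. The group means of C1S had the order of SAA1, but its arrays overlapped between NC1 1 to 3 and the siRNA. C1S lay below the median of genes on every array.

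CFI is the protease that shuts complement down. CFI (probe set 8102328, chr4:109730982-109801999) was at 3.99, 3.64 and 3.99 with the mimic and at 4.03, 3.70 and 3.92 with the siRNA, against 4.49, 4.27 and 4.36 on NC1 4 to 6 and 4.59, 4.86 and 4.25 on NC1 1 to 3. All treated arrays lay below all NC1 arrays, and the NC1 parts overlapped. These levels are in the lower part of the array, at or below the 35.2 percentile of the genes on an array.

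Across the 10 genes, 8 had NC1 arrays 4 to 6 wholly below NC1 1 to 3, where 10.4% of all genes did, and 6 differed by at least 1 on the log2 scale in that direction, where 0.255% of all genes did. As several members were picked on this contrast, nothing is read from these counts. The median difference was -1.77 over the members and -0.02 over all genes.

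The comparison of SIN3A siRNA with all NC1 arrays asked which of these genes change when SIN3A is depleted. CFI and SERPINA3 fell, and the other 8 genes did not pass the test. Several members were picked for the gap between the NC1 parts, and that gap enters the error of this test. A member picked so had little room to pass, so nothing is read from the 8 misses or from the count of calls. CFI averaged 3.89 ± 0.17 with the siRNA (SD, n = 3) and 4.47 ± 0.23 with NC1 (SD, n = 6), a log2 difference of -0.58 (SE 0.13, limma adjusted p = 0.0245). SERPINA3 averaged 9.33 ± 0.09 with the siRNA and 9.68 ± 0.10 with NC1 (SD, n = 3 and 6), a difference of -0.35 (SE 0.08, limma adjusted p = 0.0310). These 2 of 10 calls, both lower, stand beside 4.01% of genes called in either direction and 1.66% called lower. CP missed the adjusted threshold at a log2 difference of -1.05 (SE 0.46, limma adjusted p = 0.273), and SAA1 stood at 1.15 with an SE of 0.84 (limma adjusted p = 0.571), since its NC1 arrays had an SD of 2.02. The CFI call was lost without any 1 of the siRNA arrays (adjusted p 0.0545, 0.144 and 0.0965). The SERPINA3 call was lost without any siRNA array (highest limma adjusted p 0.152), without NC1 4 or 5 (0.0590 and 0.0599), and with the array set as a block (-0.30, adjusted p = 0.0785). It was also lost with arrays centred on their medians (0.0570), the arrays of both groups only (0.0640), NC1 1 to 3 alone (0.0800) and the replicate block (0.0946).

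The miR-138 mimic was set against the same 6 NC1 arrays, so its values share their controls with those of the siRNA. CFI fell, at 3.87 ± 0.21 with the mimic (SD, n = 3) and 4.47 ± 0.23 with NC1 (SD, n = 6), a log2 difference of -0.60 (SE 0.13, limma adjusted p = 0.0468). It was 1 of 10 members called, where 1.04% of genes were called in either direction 0.641% higher and 0.402% lower. The call lay close to the threshold and was lost without 10 of the 12 arrays (NC1 3 and 5 being the exceptions), at adjusted p values of up to 0.288. It was also lost with the array set as a block (-0.50, limma adjusted p = 0.0714). SERPINA3 stood at -0.27 (SE 0.08, limma adjusted p = 0.167), CP at -1.24 (SE 0.46, 0.288) and IL6 at 0.95 (SE 0.57, 0.593). For the siRNA and the mimic, 2 and 3 members had all treated arrays below all NC1 arrays (CFI and SERPINA3, with CP added for the mimic), where 3.53% and 2.54% of all genes did. No member lay above all NC1 arrays with either treatment, where 5.49% and 3.89% of genes did. As several members were picked for the gap between the NC1 parts, nothing is read from these counts or from the count of calls.

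Against each part of the control alone, the same treated arrays gave opposite signs for 6 of the 10 members with the mimic and 7 with the siRNA. These differences are given without a test, since the part that served as control had a share in the choice of the members. The mimic minus NC1 4 to 6 was 2.18 for IL6 (SE 0.15), 0.82 for SAA1 (SE 0.14), 0.55 for CFB (SE 0.09), 0.32 for SAA2 (SE 0.11) and 0.23 for C3 (SE 0.13). On the further probe set of SAA2 (7946983) the mimic and NC1 4 to 6 averaged 5.05 and 4.97, and their arrays overlapped. The mimic minus NC1 1 to 3 was -0.28 for IL6 (SE 0.15), -2.84 for SAA1, -1.20 for CFB, -2.00 for SAA2 and -1.55 for C3. IL6 thus had a 4.54-fold higher level with the mimic than on NC1 4 to 6, and SAA1 a 1.77-fold higher one, both over the dim levels of NC1 4 to 6.

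For the siRNA the values against NC1 4 to 6 were 2.98 for SAA1, 1.55 for SAA2, 1.53 for IL6, 1.20 for C3 and 1.04 for CFB. Against NC1 1 to 3 they were -0.69, -0.76, -0.93, -0.58 and -0.71 in the same order of genes. CP differed from this group: the siRNA stood at -0.06 (SE 0.14) against NC1 4 to 6 and at -2.04 against NC1 1 to 3, and the mimic at -0.25 and -2.23. CFI and SERPINA3 were lower against both parts. CFI was at -0.50 and -0.69 with the mimic and at -0.49 and -0.68 with the siRNA, and SERPINA3 at -0.32 and -0.22 with the mimic and at -0.39 and -0.30 with the siRNA, each against NC1 4 to 6 and then NC1 1 to 3.

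**Figure D2:**
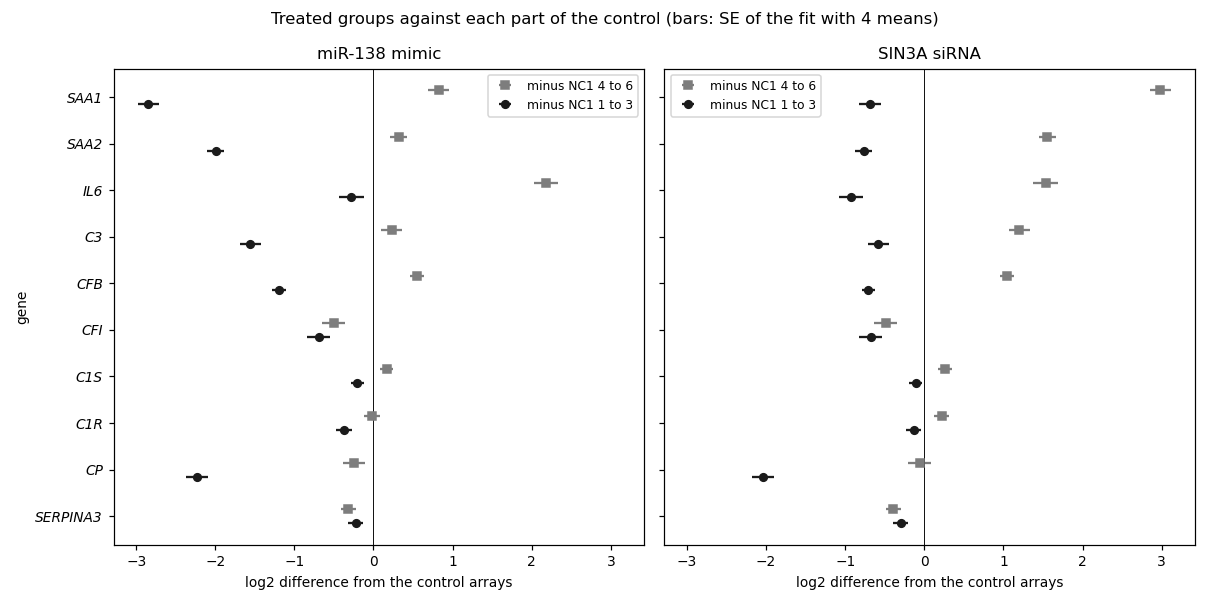
Log2 difference of the miR-138 mimic (left) and SIN3A siRNA (right) from NC1 4 to 6 (squares) and from NC1 1 to 3 (circles) for each gene, with the SE of a fit with 4 means. IL6 with the mimic is at 2.18 from NC1 4 to 6 and -0.28 from NC1 1 to 3, and CFI and SERPINA3 are below 0 in all 4 differences.

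The mimic and the siRNA were compared directly, a difference into which no NC1 array enters. Whether any member was chosen with this contrast in view is not known. SAA1, SAA2, C3 and CFB were lower with the mimic and IL6 was higher: 4.47-fold lower for SAA1 (log2 -2.16), 2.35-fold lower for SAA2 (-1.23), 1.96-fold lower for C3 (-0.97), by -0.49 on the log2 scale for CFB and 1.57-fold higher for IL6 (0.65). In the fit with 3 group means, whose variance includes the spread of the NC1 arrays, 0 of 10 members were called by limma, where 1.57% of genes were (0.679% higher, 0.89% lower), and 1 (SAA1) had an unadjusted p under 0.05. Several members were picked for that spread between the NC1 parts, so nothing is read from the count of 0. The adjusted p was 0.338 for SAA1 (SE 0.97), 0.410 for SAA2, 0.409 for C3, 0.740 for CFB and 0.766 for IL6.

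Fitted on the 6 treated arrays alone, the same differences had smaller errors, and 5 of 10 members were called, where 8% of genes were (4.62% higher, 3.38% lower). SAA1 fell (SE 0.10, limma adjusted p = 2.0e-05), as did SAA2 (SE 0.09, 0.000121), C3 (SE 0.08, 0.000250) and CFB (SE 0.09, 0.00868), and IL6 rose (SE 0.09, 0.00318). A fit with 4 means, the NC1 parts apart, also called these 5 genes and no other member, where 5.85% of genes were called, 3.26% higher and 2.6% lower (limma adjusted p of IL6 0.0191). In the arrays themselves, 6 members were lower on all mimic arrays than on all siRNA arrays and 1 was higher, where 13.1% and 13.3% of all genes were. Several members were picked for the gap between the NC1 parts, which this contrast may also hold, so nothing is read from these counts. CP (-0.19, 95% interval -1.33 to 0.96), CFI (-0.02, -0.34 to 0.31), C1S (-0.10, -0.37 to 0.17), C1R (-0.24, -0.52 to 0.05) and SERPINA3 (0.07, -0.13 to 0.28) were called in none of these 3 fits. The intervals are those of the fit with 3 group means, whose variance includes the spread of the NC1 arrays. For CP the SE was 0.54 in that fit, 0.11 on the 6 treated arrays and 0.14 with 4 means.

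If the array sets are real, the direct contrast also holds the difference between them, and the treatment and the set cannot be told apart in it. With the set as a block, which subtracts from each treated group the NC1 part placed with it, the difference of mimic and siRNA turned to 1.51 for SAA1, 1.08 for SAA2, 0.81 for C3, 1.26 for CFB and 1.80 for CP, and IL6 went on to 3.11. The block subtracts the difference between the NC1 parts, on which several members were picked and which was negative for each of these genes. It could therefore only move each value upward. The direction of SAA1, SAA2, C3 and CFB turned and that of IL6 did not, but nothing is read from this.

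**Figure D3:**
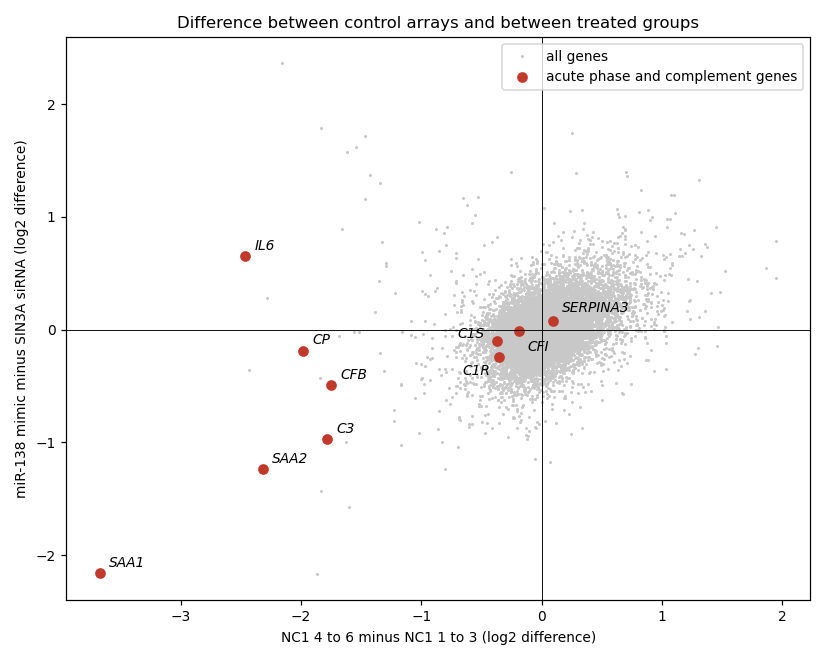
Difference between the NC1 parts (horizontal, NC1 4 to 6 minus NC1 1 to 3) against the difference between treated groups (vertical, miR-138 mimic minus SIN3A siRNA), both in log2 units, for all 18417 genes (grey) and the 10 members (red). IL6 lies at -2.46 and 0.65, apart from SAA1 (-3.67 and -2.16), SAA2, C3 and CFB, which are below 0 on both axes.

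The promoters of IL6 and CFB are shown because these genes were ordered differently between the treated groups, and that of SERPINA3 because it was lower with both treatments than with NC1. RefSeq promoter windows (GRCh38.p14) were matched for 5 of the 10 members (IL6, CFB, SERPINA3, CFI and C1R). The 250 bases before each start were searched on both strands for an NF-kB core (GGG, 2 bases of any kind, TT, 1 base of any kind, CC), TTNNGNAA (C/EBP) and TTCNNNGAA (STAT3), and matches are in capitals. All 3 genes lie on the plus strand, and the windows are chr7:22726950-22727199 for IL6, chr6:31945845-31946094 for CFB and chr14:94612141-94612390 for SERPINA3.
IL6: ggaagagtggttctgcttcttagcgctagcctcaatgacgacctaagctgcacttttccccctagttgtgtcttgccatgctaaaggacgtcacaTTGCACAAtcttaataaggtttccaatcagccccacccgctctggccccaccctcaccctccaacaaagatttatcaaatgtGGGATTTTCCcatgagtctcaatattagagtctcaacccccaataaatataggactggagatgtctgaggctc
CFB: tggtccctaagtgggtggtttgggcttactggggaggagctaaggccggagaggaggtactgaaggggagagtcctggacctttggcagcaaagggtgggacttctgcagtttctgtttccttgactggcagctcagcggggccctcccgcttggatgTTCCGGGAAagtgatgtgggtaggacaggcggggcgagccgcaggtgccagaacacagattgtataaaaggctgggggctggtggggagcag
SERPINA3: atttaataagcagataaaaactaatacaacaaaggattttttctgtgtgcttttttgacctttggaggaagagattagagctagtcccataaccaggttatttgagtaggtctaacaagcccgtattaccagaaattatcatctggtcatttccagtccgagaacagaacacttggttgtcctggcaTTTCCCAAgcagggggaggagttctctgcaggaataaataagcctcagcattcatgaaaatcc
The IL6 window held 1 NF-kB match, GGGATTTTCC, 73 to 64 bases before the start, and 1 C/EBP match, TTGCACAA, 155 to 148 bases before it. The CFB window held 1 STAT3 match, TTCCGGGAA, and that of SERPINA3 1 C/EBP match, TTTCCCAA. CFI had 2 C/EBP matches, and the 2 windows of C1R together had 3 C/EBP matches and 1 STAT3 match. No matches overlapped in the windows shown. Of 35097 human promoter windows of the same length, 5.06% held the NF-kB letters, 33.2% those of C/EBP and 6.56% those of STAT3. A match is a description of the letters and not a bound site.

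**Figure D4:**
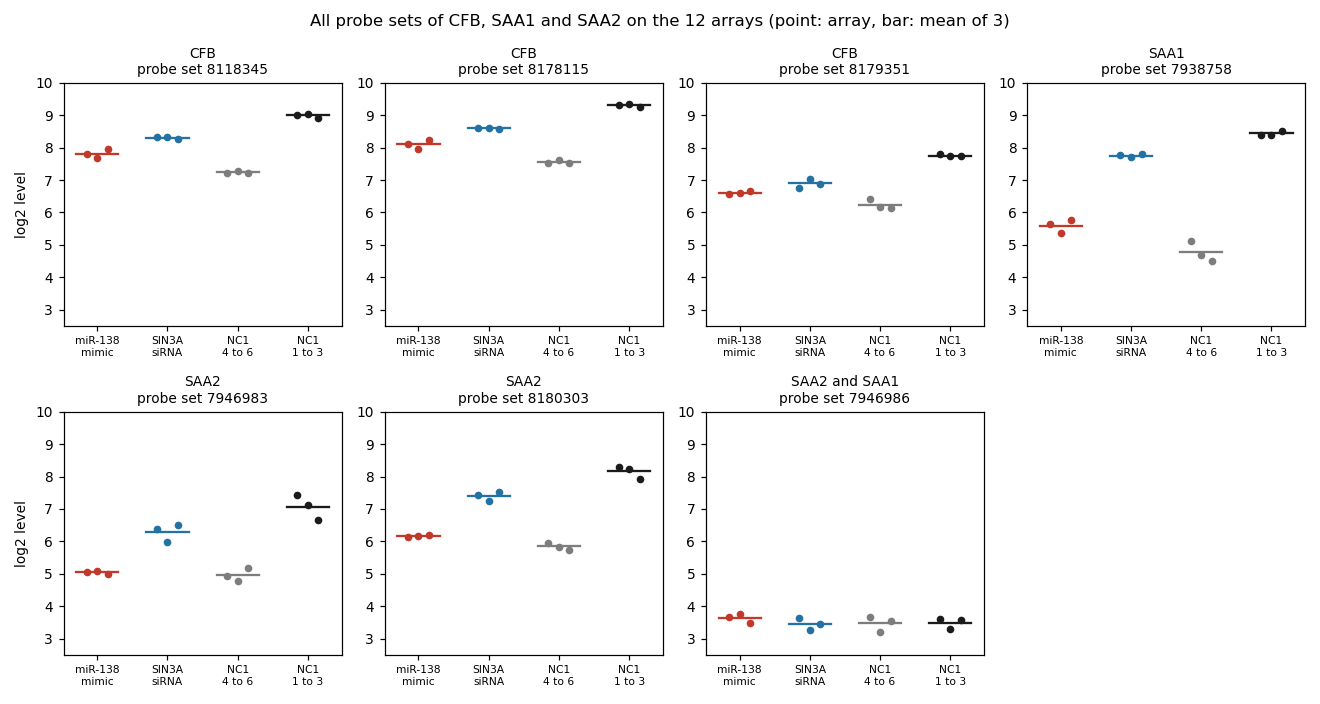
Level of every probe set of CFB, SAA1 and SAA2 on each array in log2 units, by group (points are arrays, bars are means of 3). Probe sets of 1 symbol keep the same order of group means within each gene, and the probe set annotated to both SAA2 and SAA1 stays between 3.21 and 3.75.

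Of 108 further genes of complement, the acute phase and IL-6 signalling, 95 were measured with a probe set of their own. With the siRNA 3 of them fell and 0 rose, and with the mimic 1 rose and 1 fell. These calls were 3.16% and 2.11% of the 95 genes, beside 4.01% and 1.04% of all genes. SERPINA1, alpha-1-antitrypsin, fell with both: it averaged 6.11 ± 0.02 with the siRNA (SD, n = 3; log2 difference from NC1 -0.48, SE 0.09, limma adjusted p = 0.00781). On the mimic arrays it averaged 6.19 ± 0.04 (SD, n = 3), a difference of -0.40 from NC1 (SE 0.09, limma adjusted p = 0.0422). Its NC1 parts averaged 6.46 (NC1 4 to 6) and 6.71 (NC1 1 to 3). C5, the complement protein whose fragment draws neutrophils, fell with the siRNA (-0.72, SE 0.15, limma adjusted p = 0.0174), and so did IL6ST, the signalling subunit of the IL-6 receptor (-0.58, SE 0.14, limma adjusted p = 0.0304). CD55, which speeds the decay of complement convertases on the cell surface, rose with the mimic (0.56, SE 0.12, limma adjusted p = 0.0390). Its differences from NC1 4 to 6 and NC1 1 to 3 taken singly were 0.78 and 0.34. These calls were lost without 1 array or more. C5 was lost without siRNA 2 or 3 (limma adjusted p 0.0980 and 0.0945), and IL6ST without any siRNA array or NC1 4 (highest 0.149). SERPINA1 with the siRNA was lost without siRNA 2 (0.0505). With the mimic it was lost without any treated array, NC1 1 or NC1 2 (highest 0.207), with the array set as a block (-0.27, 0.0789) and with NC1 4 to 6 alone (0.0582). CD55 was lost without any treated array or NC1 4, 5 or 6 (highest 0.195). Centring arrays on their medians lost IL6ST (0.0525) and SERPINA1 with the mimic (0.0592). The arrays of both groups only lost IL6ST (0.0758), CD55 (0.106) and SERPINA1 with the mimic (0.108). A second quantile normalization lost CD55 (0.204) and SERPINA1 with the mimic (0.0665).

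By list, 1 of 26 complement components and receptors fell with the siRNA, with a median of 0.02 beside -0.01 over all genes, and 0 were called with the mimic by limma (median -0.07, beside -0.01). Of 14 complement regulators 0 were called with the siRNA (median 0.02) and 1 rose with the mimic (median -0.05). Of 25 acute phase proteins 1 fell with the siRNA (median -0.04) and 1 with the mimic (median -0.03). Of 18 genes of the IL-6 family and its signalling 1 fell with the siRNA (median 0.03) and 0 were called with the mimic (median 0.02). Of 14 transcription factors of acute phase genes, among them CEBPB, STAT3 and RELA, 0 were called with either treatment (medians 0.08 with the siRNA and 0.02 with the mimic). At an unadjusted p under 0.05 there were 11 of the 95 genes with the siRNA and 8 with the mimic, beside 16.4% and 11.3% of all genes. In the direct comparison of mimic and siRNA 0 of the 95 genes were called by limma, with 3 at an unadjusted p under 0.05, beside 13.6% of all genes.

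The NC1 parts differed in part of these lists too. NC1 4 to 6 lay wholly below NC1 1 to 3 for 11 of 25 acute phase proteins, 8 of 14 complement regulators, 5 of 14 transcription factors, 2 of 26 complement components and receptors and 2 of 18 genes of the IL-6 family, where 10.4% of all genes did. They lay wholly above for 0, 2, 0, 1 and 0 of these, where 12% of all genes did. The medians were -0.21, -0.17, -0.17, -0.06 and -0.06 on the log2 scale, beside -0.02 over all genes, and no gene of the lists differed by 1 or more. Marker lists of other cell types are given beside this: the mean level of leukocyte markers was 4.91 to 5.07 with the mimic, 4.98 to 5.09 with the siRNA, 4.89 to 5.05 on NC1 4 to 6 and 5.07 to 5.13 on NC1 1 to 3, and that of hepatocyte markers stayed between 3.86 and 3.97 on all arrays. No marker of the leukocyte, hepatocyte, fibroblast or endothelial lists was called in any of the 3 comparisons by limma. The part of other cells in the members' levels was not tested.

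The genes most like the mean of the 10 members over the 12 arrays, each member centred on its mean, were GLRX, a glutaredoxin (Pearson r 0.98), SLPI, the secreted inhibitor of leukocyte proteases (0.97), TCN1, a carrier of vitamin B12 (0.97), PDZK1IP1 (0.96) and SFTA2 (0.95). The genes most opposed to it were MAGOHB, of the exon junction complex (-0.98), CBX1, a heterochromatin protein (-0.97), and UTP4, of ribosome assembly (-0.97). The 12 arrays make up 4 groups of 3, so these values rest largely on 4 means and carry no test. SLPI was 1.62 lower on NC1 4 to 6 than on NC1 1 to 3 (log2), and 1.00 lower with the mimic than with the siRNA.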

How the data were processed

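RNA of 12 Calu-3 samples was measured on arrays. The authors deposited log2 values for each probe set. The submitters' processing notes name RMA and Partek 6.3 without their roles. Values ran between 1.43 and 13.2 and were used as deposited.

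Each gene was represented by its brightest probe set, by mean over 12 arrays, among those of 1 symbol (18417 genes from 33297 probe sets, of which 19460 had 1 symbol, 1754 several and 12083 none). Arrays give no counts, so their number limits the precision. One limma model (version 3.58.1, R 4.3.3) held 3 group means over all arrays, with 9 residual degrees of freedom and Benjamini-Hochberg adjustment over all genes, and calls were made below an adjusted p of 0.05. The procedure was tested on simulated data that held no gap between the NC1 parts, so that test does not cover the gap seen here. The members and lists were chosen with earlier results of these data known. The rule for named genes took the members, SIN3A, from each list up to 4 called genes and up to 3 at least 1 apart (log2) between the NC1 parts, and the 8 genes most like or opposed to the members' mean. Normalization, dim genes, probe sets, arrays in the fit, the variance model, blocks, the control part and each array were varied. The fit with 4 means was chosen after seeing the data. Of 108 list genes 13 are not analysed here.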

Additional observations from a re-analysis of the deposited data

How the results depend on the processing

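The counts rested on which control arrays were used, on dim genes and on single arrays. With SIN3A siRNA, 2 members were called against NC1. This became 7, all lower, with NC1 1 to 3 alone (4.8% of all genes called), the array set (5.7%) or the replicate block (3.84%). It became 8 (6 higher, 2 lower) with NC1 4 to 6 alone (13.9%). It became 1 with arrays centred on their medians (3.34%) or with the arrays of both groups only (1.94%). With dim genes left out it was also 1 (8.45% of the genes in that fit, which left out 3 members). Without 1 array it was 0 to 2. The 3 pathway genes became 6 with the replicate block, 7 and 12 with NC1 1 to 3 or NC1 4 to 6 alone and 8 with the set as a block, and 0 to 4 without 1 array. With the mimic, the 1 member became 0 with a second quantile normalization (1.33% of all genes called) or median centring (0.825%). It was also 0 with dim genes left out (2.61% of the genes in that fit) or the arrays of both groups only (0.5%). It became 7, all lower, with the replicate block (6.96% of all genes called) or NC1 1 to 3 alone (7.68%), 4 (3 higher, 1 lower) with NC1 4 to 6 alone (4.76%), 3, all higher, with the set as a block (3.49%), and 0 to 1 without 1 array. The 2 pathway genes became 0 (quantile, both groups only), 1 (centring), 7 (replicate block) and 8 (NC1 1 to 3 alone), and 0 to 2 without 1 array. Mimic against siRNA gave 0 members (1.57% of all genes called). It gave 5 with the arrays of both groups only (8%), the replicate block (4.51%) or 4 means (5.85%), and 6, all higher, with the set as a block (2.09%). The members' counts with 1 NC1 part, the set block or, against NC1, the replicate block rest on the difference used to pick several members. They test nothing about the members, and nothing is read from them. In the main fits that difference enters the error instead, and nothing is read from those counts either. The counts of 5 for mimic against siRNA may hold that difference too, and nothing is read from them. The 0 pathway genes of mimic against siRNA became 4, 1, 2 and 4 in the order of fits given for it. Of the 8 genes named for their pattern, 5 were named again after quantile normalization and 4 to 8 without 1 array.

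Signs turned as follows. Setting the siRNA against NC1 1 to 3 alone, the set block or the replicate block gave -0.69 (SAA1), -0.76 (SAA2), -0.93 (IL6), -0.58 (C3), -0.71 (CFB), -0.11 (C1S) and -0.14 (C1R). For the mimic, NC1 4 to 6 alone or the set block gave 0.82 (SAA1), 0.32 (SAA2), 0.23 (C3), 0.55 (CFB) and 0.17 (C1S), and NC1 1 to 3 alone or the replicate block -0.28 (IL6). C1S was 0.0028 after quantile normalization. Mimic minus siRNA with the set as a block was 1.51 (SAA1), 1.08 (SAA2), 0.81 (C3), 1.26 (CFB), 0.18 (CFI), 0.27 (C1S), 0.12 (C1R), 1.80 (CP), -0.020 (SERPINA3) and -0.53 (SIN3A). Without 1 array the ranges that crossed 0 were -0.013 to 0.35 (CFB) and -0.019 to 0.095 (C1R) for the siRNA, -0.070 to 0.030 (C1S) for the mimic, and -0.11 to 0.10 (CFI) and -0.036 to 0.13 (SIN3A) for mimic minus siRNA. The cause was not tested.

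The replicate block leaves NC1 4 to 6 out of each difference, as their numbers occur in no other group, so its values equal those against NC1 1 to 3. Same-numbered arrays of NC1 1 to 3, the siRNA and the mimic were compared by their deviations from group means. None of 9 pairs had a correlation over 0.1 (-0.10 to 0.03 across genes). NC1 4 to 6 were not in this check, and it cannot show that same-numbered arrays had nothing in common. The 8 members with separate NC1 parts stayed 8 to 9 under the alternatives run. CFI, C1S, the low levels of CP, and SAA1, IL6 and C3 on NC1 4 to 6 lie under the median of genes, and the values carry no background by which to judge them.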

Other observations

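Some genes of the acute phase and complement lists, chosen here after their values were seen, differed between the NC1 parts by less than 1 on the log2 scale, in both directions. C4BPB, a chain of the C4b-binding protein, averaged 5.41 with the mimic, 5.57 with the siRNA, 5.42 on NC1 4 to 6 and 6.25 on NC1 1 to 3 (log2 units, 3 arrays each). SERPING1, the inhibitor of C1R and C1S, averaged 6.20 with the mimic, 6.65 with the siRNA, 6.13 on NC1 4 to 6 and 6.76 on NC1 1 to 3. LCN2, lipocalin 2, averaged 9.02, 9.05, 8.99 and 9.48 in the same order. Higher on NC1 4 to 6 than on NC1 1 to 3 were C1QBP at 7.46 and 7.20, and the complement regulators CD46 at 9.52 and 9.29 and CD59 at 10.1 and 9.86. ORM2, an acute phase glycoprotein, averaged 4.32 ± 0.30 and 3.96 ± 0.51 (SD, n = 3 each), with arrays that overlapped.

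The profile of IL6 had other neighbours than that of SAA1, a comparison also made after the values were seen. Most like IL6 over the 12 arrays were KYNU, an enzyme of tryptophan breakdown (Pearson r 0.97), IFI35, an interferon-induced gene (0.97), TXNIP (0.96), PLAAT4 (0.95) and CLTRN (0.95). All 5 were higher with the mimic than on NC1 4 to 6, by 0.71 to 1.26 on the log2 scale, as was IL6 itself (2.18). Most like SAA1 were TCN1 (0.97), SLPI (0.97), PDZK1IP1 (0.96), AKR1C3 (0.96) and PDLIM1 (0.96), which differed from NC1 4 to 6 with the mimic by -0.05 to 0.43. Each list was picked to follow its gene on these same arrays, so the gap between the ranges was built in by the choice. No list of one gene is shown to differ from that of the other, as these values carry no test.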
